A study of Homo sapiens with 4 samples.

Results

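Beta-catenin, the product of CTNNB1, is the central effector of canonical Wnt signalling. The transcripts described here are those of the pathway's own component genes, as listed from precipitations of the beta-catenin protein. The genes were 26 named components together with every WNT ligand and FZD receptor gene, 53 genes in all. They were grouped by role as ligands and receptors (with the DVL adaptors), the destruction complex (with CTNNB1 as its substrate) and nuclear co-factors. Of the 53 genes, 20 had at least 1 transcript among the 10098 gene names of the deposited tables, through 51 of the 19895 different transcripts. RIP-Seq sequences the RNA that remains attached to a protein when an antibody precipitates that protein from a cell or nuclear extract. The 4 libraries were the beta-catenin RIP of HT-29 nuclei (Bethyl A302-012A antibody), the HT-29 input without antibody, the beta-catenin RIP of CaCo-2 nuclei with the same antibody, and the CaCo-2 input without antibody. Both lines are human colon adenocarcinoma lines, neither was treated, and each group had 1 library. A control precipitation with another antibody is not analysed here, so whether a listed transcript was attached to beta-catenin was not tested. With 1 library per group there is no error between replicates, no difference below was tested, and sequencing depth is unknown from these tables.

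When no WNT ligand is bound to its FZD and LRP receptors, APC and AXIN hold beta-catenin for phosphorylation by casein kinase 1 alpha and GSK3, and the ubiquitin ligase subunit BTRC then marks it for destruction. Ligand binding recruits the DVL adaptors, the destruction complex is blocked, and beta-catenin enters the nucleus, where it joins TCF factors, BCL9 and PYGO proteins and the acetyltransferases CREBBP and EP300 and displaces TLE co-repressors. Colon adenocarcinomas commonly have this pathway switched on by truncation of APC, and HT-29 and CaCo-2 are both known to carry truncated APC.

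The tables hold part of each library, and this limits every value below. Levels are in FPKM, fragments scaled by transcript length and library size. The HT-29 table goes down to a RIP level of 1.31 FPKM and the CaCo-2 table to 0.842, and the lowest deposited fold of RIP over input was 1.5 for either line. A positive ratio is therefore set by the selection, and transcripts with a smaller fold, or with more input than RIP, were not analysed here. Ratios were taken after adding 1 FPKM to both levels and are on the log2 scale. They were counted at 2-fold or more among transcripts that reached 1 FPKM in at least 1 library of the line. Where the input is listed at 0, a RIP level of 1 FPKM is enough to pass, and no fold is given. An input at 0 belongs to 1 isoform and does not show that the gene was absent from the input, because isoforms that share exons divide the same reads. Of 12 colon epithelial markers, 8 appeared in the HT-29 table and 6 in that of CaCo-2, led by KRT18 at 54.3 and 32.0 FPKM in the RIP. The markers EPCAM, CDX1, CDX2 and CEACAM5 were not listed in either line, and neither was any of 6 markers of fibroblast, blood or endothelial cells.

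In HT-29, 16 transcripts of 10 Wnt component genes were listed. On the ratio with 1 FPKM added, 11 of them reached 2-fold or more (68.8%), where the background over all listed transcripts was 56%. The median log2 ratio of the 16 was 1.40 (quartiles 0.79 and 1.92), with 1.14 over all 9880 listed transcripts (0.69 and 1.56). In CaCo-2, 41 transcripts of 17 genes were listed. Past the filter were 34, of which 14 reached 2-fold (41.2%, background 40.8%), with a median of 0.77, against 0.82 over all 10116 that passed. The CaCo-2 share and median thus lay next to those of the whole table. Counted by gene, 8 of 10 in HT-29 and 11 of the 16 with a transcript past the filter in CaCo-2 had at least 1 transcript past 2-fold. The background by gene was 64.5% and 50.2%, and a gene with many listed isoforms has more chances to be counted.

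Inputs listed at 0 carried part of these counts. They made up 4 of the 11 transcripts past 2-fold in HT-29 and 8 of the 14 in CaCo-2. Without them, a setting chosen after seeing the data, 7 of 12 were past 2-fold in HT-29 (background 35.5%) and 6 of 26 in CaCo-2 (background 19.5%). Of the 7 in HT-29, DVL2 ENST00000575458 and TLE3 ENST00000317509 still had inputs near 0, at 0.000111 and 0.000895 FPKM. When both libraries had to reach 1 FPKM, 3 of 6 passed in HT-29 (background 25.2%): the transcripts of FZD6, CSNK1A1 and BCL9L. In CaCo-2, 0 of 8 did so (background 13.1%). The authors' deposited table, with 1 library per side, gave q (their p-value adjusted for multiple testing) at or below 0.05 for 0 of 16 members in HT-29 (background 3.08%) and 2 of 41 in CaCo-2 (background 2.24%). At an unadjusted p at or below 0.05 the authors' deposited table held 3 of 16 in HT-29 (background 17%) and 7 of 41 in CaCo-2 (background 14.3%).

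**Figure D1:**
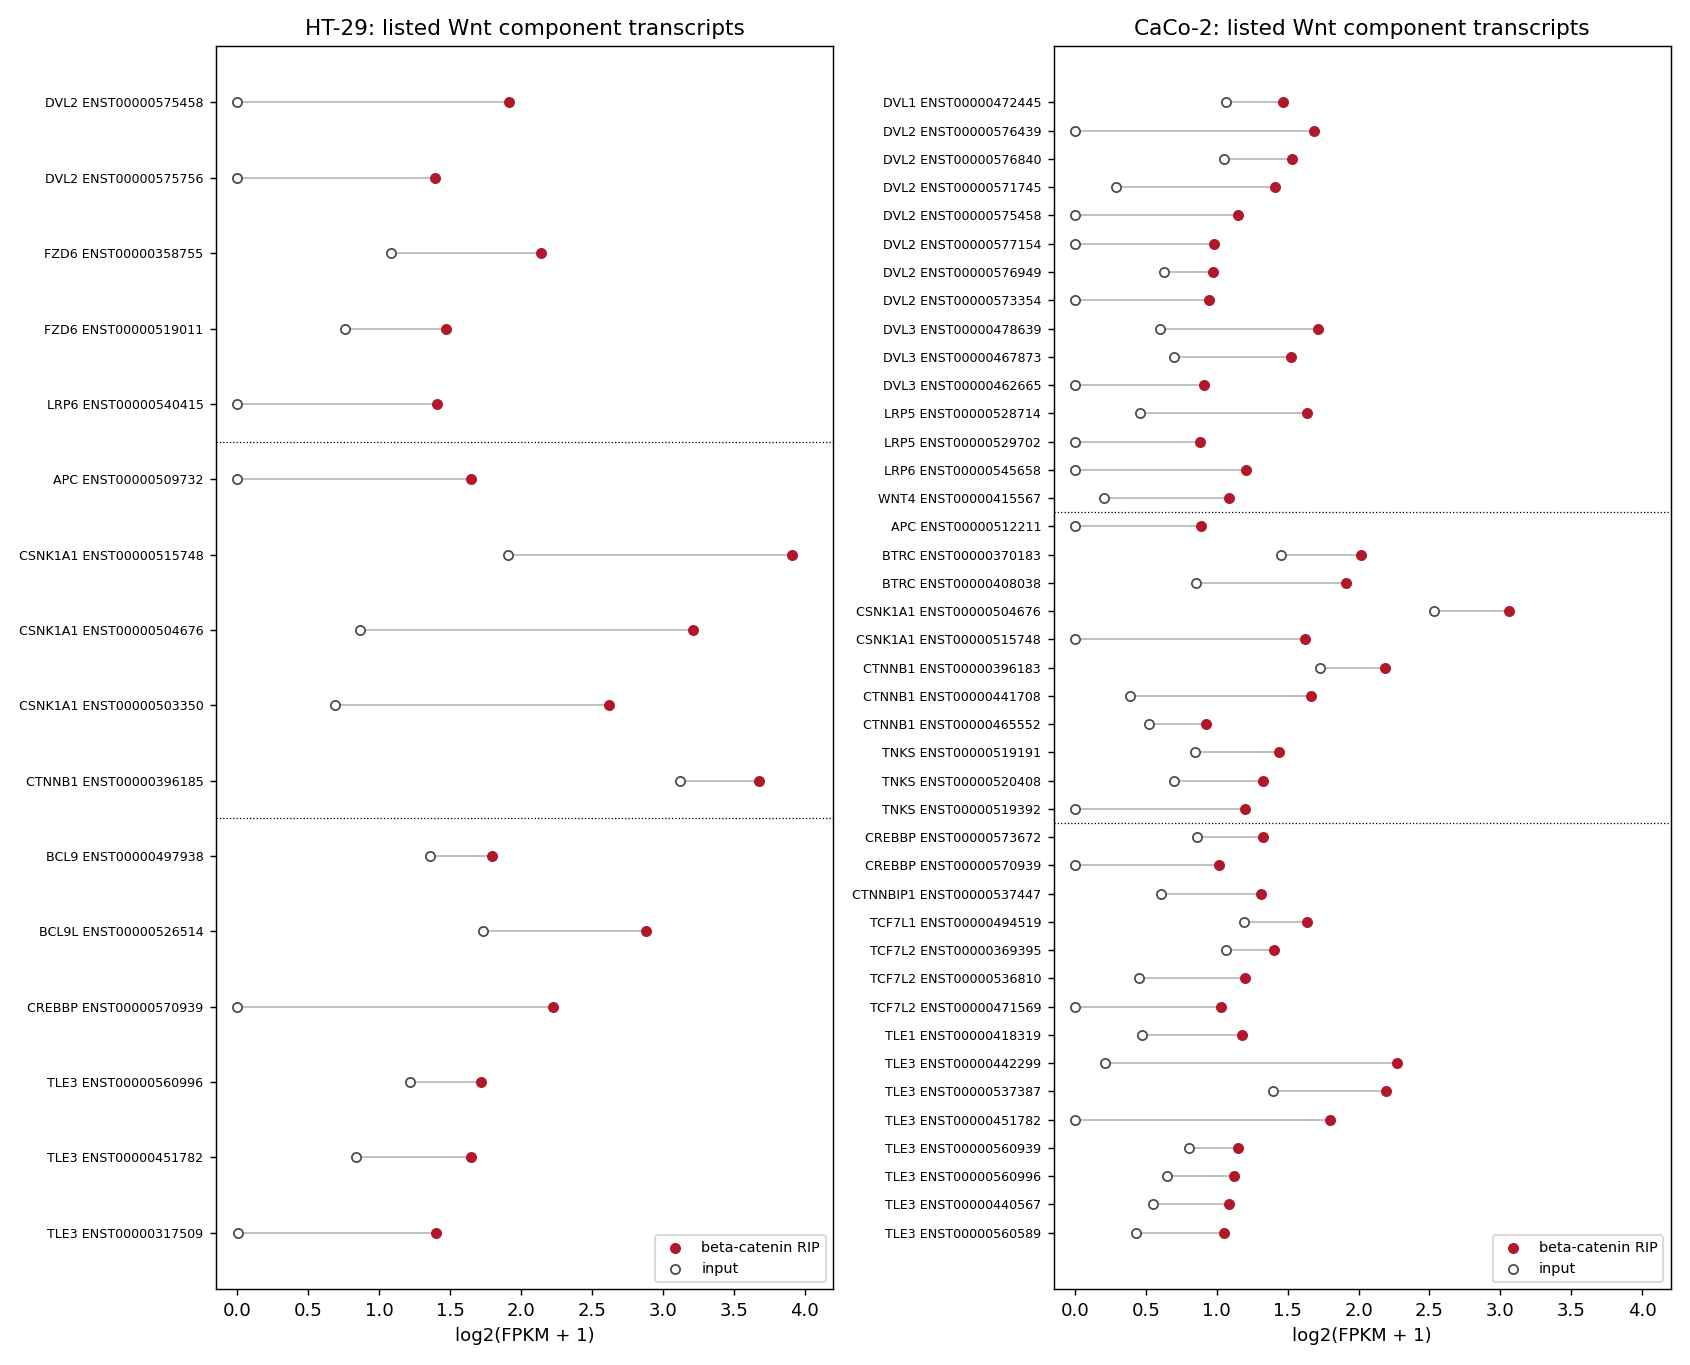
Levels of every listed Wnt component transcript as log2(FPKM + 1), in the beta-catenin RIP (filled) and the input (open) of HT-29 (left, 16 transcripts) and CaCo-2 (right, 41). Dotted lines separate ligands and receptors, destruction complex and nuclear co-factors. RIP points lie right of input points by the selection of the tables, and CSNK1A1 and CTNNB1 have the highest RIP levels in HT-29.

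Among ligands and receptors, 1 of 19 WNT genes and 1 of 10 FZD genes were listed, each in 1 line. WNT4, a secreted ligand, was represented in CaCo-2 by a protein-coding transcript on chromosome 1 (hg19, 22453531 to 22456344). It had 1.12 FPKM in the RIP and 0.155 in the input, so the log2 ratio of 0.88 stayed under 2-fold once the pseudocount was added. FZD6, a frizzled receptor, was listed in HT-29 by 2 transcripts on chromosome 8. Its protein-coding transcript (104311059 to 104345087) had 3.41 FPKM in the RIP against 1.12 in the input, a log2 ratio of 1.06. In the authors' deposited table this was the lowest q of any HT-29 member, 0.103. The nonsense-mediated-decay transcript of FZD6 covers nearly the same region, and had 1.77 FPKM in the RIP against 0.694 in the input. The FZD6 isoforms were thus both present in the input, and the protein-coding one was the higher in both libraries.

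The co-receptors LRP5 and LRP6, which are phosphorylated when WNT binds, appeared through short or non-coding isoforms. LRP6 had a processed transcript at 1.65 FPKM in the HT-29 RIP (chromosome 12, 12278296 to 12288162) and a retained-intron transcript at 1.30 FPKM in the CaCo-2 RIP (12339740 to 12356257), both with input listed at 0. These are different, non-overlapping stretches of the gene, so the lines did not share an LRP6 transcript. LRP5 was listed in CaCo-2 alone: a processed transcript (chromosome 11, 68177497 to 68180663) had 2.11 FPKM in the RIP against 0.376 in the input, a log2 ratio of 1.18. Its protein-coding isoform lay at 0.843 FPKM in the RIP with input at 0, next to the lowest RIP level of the table and below the filter.

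DVL2, one of the adaptors that carry the signal from frizzled to the destruction complex, had 7 listed transcripts in CaCo-2, a number reached by 34 of the 7452 gene names there. Of these, 6 were retained-intron transcripts on the minus strand of chromosome 17. The highest of them, ENST00000576439 (7132863 to 7134098), had 2.22 FPKM in the RIP with input at 0. ENST00000576840 had 1.89 FPKM in the RIP against 1.07 in the input. ENST00000571745, which lies inside the span of that transcript, had 1.66 FPKM in the RIP against 0.222 in the input. The remaining retained-intron transcripts were below the filter: ENST00000577154 had 0.972 FPKM in the RIP and ENST00000573354 0.928, both with input at 0, and ENST00000576949 had 0.965 FPKM against 0.544. Retained-intron forms of DVL2 therefore ranged from inputs of 0 to an input of 1.07 FPKM, within 1 gene of 1 line.

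The protein-coding DVL2 transcript ENST00000575458 (7128774 to 7137637) was listed in both lines. In HT-29 it had 2.77 FPKM in the RIP against 0.000111 in the input, and in CaCo-2 1.21 FPKM against 0. The authors' deposited table gave it an unadjusted p of 0.983 in HT-29, and for CaCo-2 a p of 0.000269 and a q of 0.0237. Levels were normalised separately for each line, so the RIP levels of the lines are not compared here. A second protein-coding DVL2 transcript, ENST00000575756, reached 1.63 FPKM in the RIP of HT-29, and its input was 0. Summed over listed isoforms, DVL2 had 4.39 FPKM in the HT-29 RIP against 0.000111 in the input, and 9.85 FPKM in the CaCo-2 RIP against 1.84. These sums leave out every isoform that was not listed.

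The related adaptors DVL1 and DVL3 were listed in CaCo-2 alone, and again mostly by retained-intron transcripts. DVL3 had one with a genomic span of 508 nucleotides on chromosome 3 (183883982 to 183884489). It had 2.28 FPKM in the RIP against 0.518 in the input, a log2 ratio of 1.11. A second, with a genomic span of 832 nucleotides, had 1.88 FPKM in the RIP against 0.619. A processed transcript had 0.881 FPKM with input at 0, below the filter. The authors' deposited table gave q of 1 for each of the 3 DVL3 transcripts. DVL1 had a retained-intron transcript at 1.77 FPKM in the RIP against 1.10 in the input, a log2 ratio of 0.40, among the smaller member ratios of the line.

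**Figure D2:**
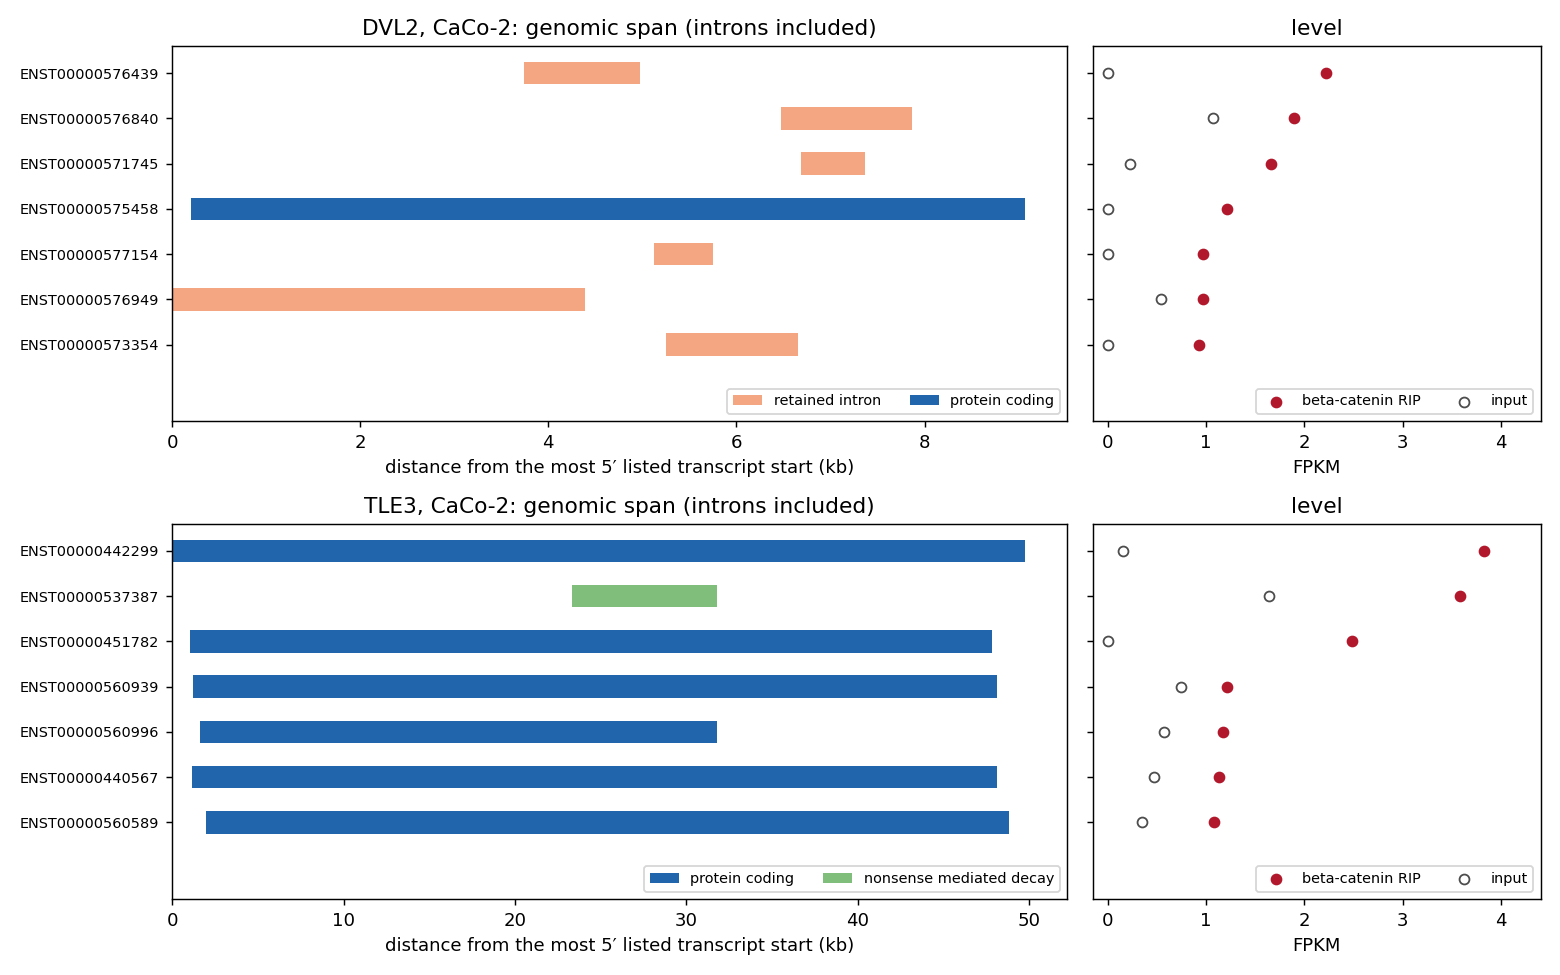
Genomic spans of the 7 listed transcripts of DVL2 (top) and of TLE3 (bottom) in CaCo-2, in kb from the most 5′ listed start, coloured by annotated class, with the FPKM of each in the RIP (filled) and input (open) at right. Spans include introns. For DVL2, 6 of 7 are short retained-intron transcripts, while 6 of 7 TLE3 transcripts are protein-coding.

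In the destruction complex, the long transcripts of CTNNB1 itself were among the more abundant members and had some of the smaller ratios. The HT-29 transcript ENST00000396185 (chromosome 3, 41240996 to 41281934) had 11.8 FPKM in the RIP against 7.69 in the input. Its RIP level stood above 93.1% of listed transcripts, and its ratio above 14.4% of them. The near full-length CaCo-2 transcript ENST00000396183, which ends at the same base, had 3.56 FPKM in the RIP against 2.32 in the input, and stood above 86.9% by RIP level and above 17.7% by ratio. Both long transcripts had a deposited fold of 1.54 in the authors' deposited table, close to the lowest fold listed. ENST00000441708, a protein-coding CaCo-2 transcript with a span of 2927 nucleotides, had 2.17 FPKM in the RIP against 0.311 in the input. Its log2 ratio of 1.27 was past 2-fold and stood above 81.4% of listed transcripts. The retained-intron transcript ENST00000465552, near the 3′ end, had 0.896 FPKM in the RIP against 0.438 in the input, and was below the filter. Added over the 3 listed CaCo-2 transcripts, CTNNB1 had 6.62 FPKM in the RIP and 3.07 in the input.

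CSNK1A1, the casein kinase that primes beta-catenin for GSK3, had the highest RIP level of any member in each line. In HT-29, ENST00000515748 (chromosome 5, 148928891 to 148930731) had 14.0 FPKM in the RIP against 2.76 in the input. ENST00000504676 (148875617 to 148929862) had 8.26 FPKM in the RIP against 0.820, and ENST00000503350 had 5.16 FPKM against 0.612. All 3 are protein-coding transcripts with input above 0, and their log2 ratios, between 1.93 and 2.35, each stood above 87.1% or more of the table. In CaCo-2 the order was different: ENST00000504676 had 7.34 FPKM in the RIP against 4.80 in the input, a log2 ratio of 0.52, and ENST00000515748 had 2.07 FPKM with input at 0. For ENST00000504676 the RIP levels of the lines were thus close and the input levels were not, with levels set separately in each table. Summed over listed isoforms, CSNK1A1 had 27.5 FPKM in the RIP against 4.19 in the HT-29 input, and 9.41 against 4.80 in CaCo-2. In the authors' deposited table the q of these 5 values lay between 0.664 and 0.931. In HT-29 a processed transcript on the same strand, CTB-89H12.4 (148872949 to 148880816), overlaps the end of ENST00000504676 and had 5.05 FPKM in the RIP against 2.30. How reads were divided between the 2 was not tested, and no other member overlapped a listed transcript of another gene.

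APC, the scaffold that holds beta-catenin, was represented by protein-coding isoforms with input at 0 in both lines, though not by the same one. ENST00000509732 (chromosome 5, 112043195 to 112103019) had 2.13 FPKM in the HT-29 RIP. ENST00000512211 (112074029 to 112175205) had 0.848 FPKM in the CaCo-2 RIP, close to the lowest RIP level of that table. BTRC, which recognises phosphorylated beta-catenin for ubiquitination, was listed in CaCo-2 by 2 long protein-coding transcripts of chromosome 10. The longer, ENST00000408038 (103113864 to 103317078), had 2.75 FPKM in the RIP against 0.808 in the input, a log2 ratio of 1.05. It was one of the pair of members with q at or below 0.05, at 0.0298 in the authors' deposited table. ENST00000370183 (103114291 to 103285840), within the span of the longer one, had 3.05 FPKM in the RIP against 1.74 in the input, and the authors' deposited table gave it a q of 1. The BTRC isoforms thus had similar RIP levels, and the one with the lower input had the larger ratio. TNKS, a tankyrase that marks AXIN for turnover, had 3 CaCo-2 transcripts on chromosome 8. A processed transcript (9598424 to 9609223) had 1.71 FPKM in the RIP against 0.798 in the input. The protein-coding one (9413424 to 9567919) had 1.51 FPKM against 0.624, and a second processed transcript had 1.30 FPKM with input at 0.

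**Figure D3:**
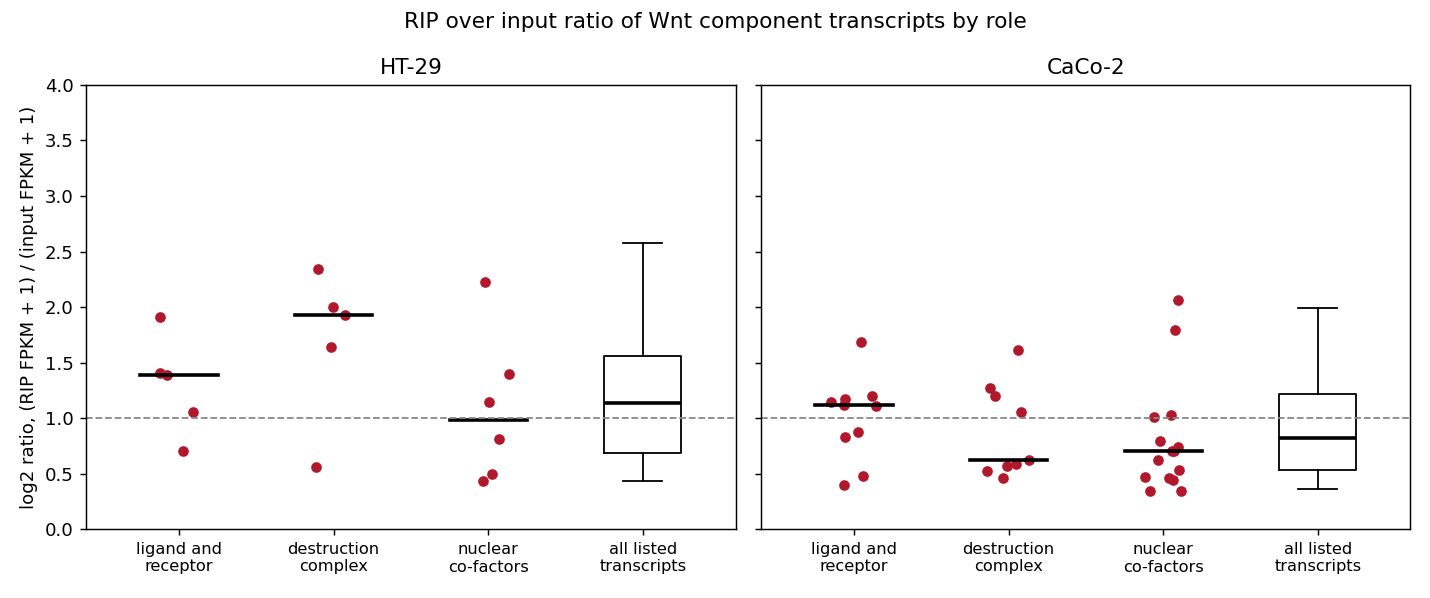
Log2 ratio of RIP FPKM + 1 over input FPKM + 1 for each Wnt component transcript past the filter, by role, in HT-29 (left) and CaCo-2 (right). Black bars are medians, the box gives the quartiles of all listed transcripts past the filter and whiskers at its 5 and 95 percent points, and the dashed line is 2-fold. Destruction complex transcripts have a median of 1.93 in HT-29 and 0.63 in CaCo-2.

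By role, the destruction complex had the highest median ratio in HT-29, 1.93 over 5 transcripts, of which 3 are CSNK1A1 isoforms, and 4 of the 5 were past 2-fold. In CaCo-2 its median was 0.63 over 9 transcripts, with 4 past 2-fold. Ligand and receptor transcripts had medians of 1.39 over 5 in HT-29, and 1.12 over 10 for CaCo-2, with 4 and 6 past 2-fold. Nuclear co-factors had 0.98 over 6 and 0.71 over 15, with 3 and 4 past 2-fold. Over all listed transcripts past the filter the medians were 1.14 and 0.82, with 56% and 40.8% past 2-fold, and each of these counts rests on 15 or fewer transcripts. The groups overlapped widely in both lines, and the order of the first 2 groups was not the same in HT-29 and CaCo-2.

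Of the nuclear co-factors, TLE3, a Groucho-type co-repressor that binds TCF factors, had the most listed transcripts, 3 in HT-29 and 7 in CaCo-2. The longest in CaCo-2, protein-coding ENST00000442299 (chromosome 15, 70340543 to 70390256), had 3.83 FPKM in the RIP against 0.156 in the input. Its log2 ratio of 2.06 was the highest of any CaCo-2 member and stood above 96.3% of the table. ENST00000451782 had 2.48 FPKM in the CaCo-2 RIP with input at 0. The authors' deposited table gave these transcripts q of 0.0656 and 0.0646, just above 0.05. A nonsense-mediated-decay transcript, ENST00000537387, had 3.58 FPKM in the RIP against 1.64 in the input. The other 4, all protein-coding, ranged from 1.08 to 1.22 FPKM in the RIP and from 0.345 to 0.745 in the input, under 2-fold on the ratio used. Among overlapping TLE3 isoforms of 1 line, log2 ratios therefore ran from 0.34 to 2.06.

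In HT-29, the TLE3 transcript with the largest ratio was ENST00000317509 (70340614 to 70390239), at 1.64 FPKM in the RIP against 0.000895 in the input. ENST00000560996 had 2.28 FPKM in the RIP against 1.32, and ENST00000451782 had 2.13 FPKM against 0.784. Of these, only ENST00000317509 passed 2-fold on the ratio with 1 FPKM added, and its input was near 0. By the authors' deposited fold, ENST00000451782 was at 2.72 and ENST00000560996 at 1.73. Summed over listed isoforms, TLE3 had 6.06 FPKM in the RIP against 2.11 in the HT-29 input, and 14.5 against 3.92 in CaCo-2. TLE1, a related co-repressor, was listed in CaCo-2 by a protein-coding transcript at 1.27 FPKM in the RIP against 0.389.

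The acetyltransferase CREBBP was listed in both lines by protein-coding ENST00000570939 (chromosome 16, 3789615 to 3817833), with a RIP level of 3.69 FPKM in HT-29, one of 1.02 in CaCo-2, and both inputs at 0. The CaCo-2 value lies just above the 1 FPKM that an input of 0 needs to be counted. CaCo-2 also listed a CREBBP retained-intron transcript at 1.50 FPKM in the RIP against 0.819 in the input.

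The BCL9 proteins, which bridge beta-catenin to PYGO, were listed in HT-29 by processed transcripts. BCL9L (chromosome 11, 118769902 to 118779258) had 6.38 FPKM in the RIP against 2.33 in the input, a log2 ratio of 1.15, one of the few members past 2-fold with over 1 FPKM in both libraries. BCL9 (chromosome 1, 147071988 to 147083492) had 2.47 FPKM in the RIP against 1.56, a log2 ratio of 0.44, the lowest of the HT-29 members. The q of BCL9L was 0.927 and that of BCL9 0.973 in the authors' deposited table.

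TCF7L1 and TCF7L2, factors that bring beta-catenin to DNA, were listed in CaCo-2 alone. TCF7L2 had 3 transcripts on chromosome 10, the longest of which, protein-coding ENST00000536810 (114710009 to 114927437), had 1.29 FPKM in the RIP against 0.370 in the input. Protein-coding ENST00000369395 had 1.65 FPKM against 1.09, the lowest ratio of the CaCo-2 members at 0.34 and, at 1.51 in the authors' deposited table, next to the lowest fold listed. A processed transcript at the 3′ end of TCF7L2 had 1.05 FPKM with input at 0. TCF7L1 had a processed transcript at 2.11 FPKM in the RIP against 1.29, and CTNNBIP1, an inhibitor that keeps beta-catenin from TCF factors, a protein-coding transcript at 1.49 FPKM against 0.524. On the ratio with 1 FPKM added, neither TCF7L1 nor CTNNBIP1 passed 2-fold, and TCF7L2 passed through the transcript with input at 0 alone. By the authors' deposited fold, CTNNBIP1 was at 2.84 and TCF7L2 ENST00000536810 at 3.49, while TCF7L1 was at 1.64.

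Across lines, 7 genes were listed in both: DVL2, LRP6, APC, CSNK1A1, CTNNB1, CREBBP and TLE3. BCL9, BCL9L and FZD6 were listed in HT-29 alone, and 10 genes in CaCo-2 alone. The lowest RIP level listed differs, at 1.31 FPKM for HT-29 and 0.842 for CaCo-2. The CaCo-2 levels of WNT4 (1.12) and TLE1 (1.27) lay below the HT-29 minimum. The other genes listed in CaCo-2 alone had a transcript above it. The same transcript was listed in both lines in 6 cases, 37.5% of the HT-29 members and 14.6% of the CaCo-2 members, where over all transcripts the shares were 19.5% and 16.1%. Of the 6, DVL2 ENST00000575458, CSNK1A1 ENST00000515748 and CREBBP ENST00000570939 reached 2-fold in both lines (background 30% of 1784 transcripts that passed in both). In CaCo-2 all 3 had input at 0. TLE3 ENST00000560996 had the most similar ratios, 0.50 in HT-29 and 0.47 in CaCo-2, both under 2-fold. CSNK1A1 ENST00000504676 had the most different ones, 2.35 in HT-29 and 0.52 in CaCo-2. The difference between lines could not be tested with 1 library per group.

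**Figure D4:**
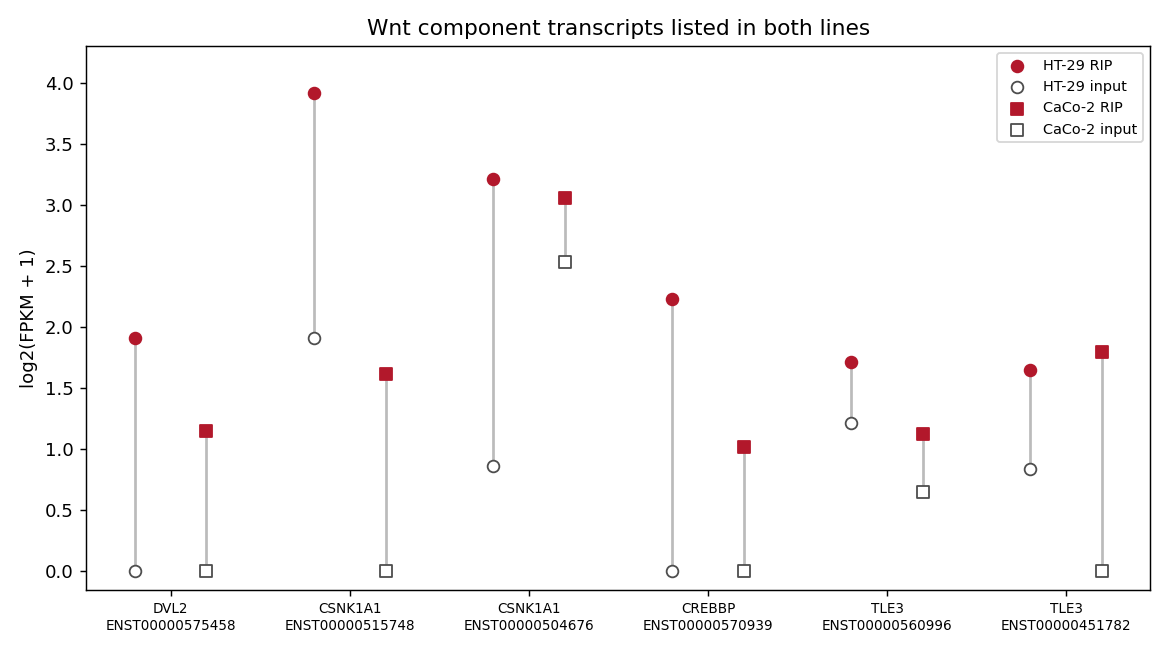
The 6 Wnt component transcripts listed in both lines, as log2(FPKM + 1) in the RIP (filled) and input (open) of HT-29 (circles) and CaCo-2 (squares). Levels were normalised separately in each table. DVL2 and CREBBP have inputs at or near 0 in both lines, and CSNK1A1 ENST00000504676 has a higher input in CaCo-2 than in HT-29.

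The listed members differed between lines in annotated class, though the lists of the lines reach down to different RIP levels. Retained-intron transcripts made up 12 of 41 in CaCo-2 (29.3%) and 0 of 16 in HT-29, against 22.7% and 17.0% of all listed transcripts. Of the 12, 6 were DVL2 and 2 were DVL3, so the CaCo-2 share rests largely on the adaptors. Protein-coding transcripts made up 12 of the 16 HT-29 members (75%) and 22 of the 41 CaCo-2 members (53.7%), whereas over all listed the shares were 49.6% and 43.0%. The median genomic span of members was 29190 nucleotides in HT-29 and 10800 in CaCo-2, against 9543 and 8479 over all listed transcripts. The 33 genes of the rule without a listed transcript include 8 named components: the scaffold AXIN1, the kinases GSK3A and GSK3B, the tankyrase TNKS2, the receptors FZD5 and FZD7, the nuclear adaptor PYGO2 and the acetyltransferase EP300. Whether their transcripts were bound was not analysed here, and binding of the listed ones was not tested either.

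A further 80 genes of the pathway, none of them among the components above, had 57 listed transcripts of 35 genes in HT-29 and 73 of 36 genes in CaCo-2. The 2-fold mark was reached by 32 of 57 (56.1%) in HT-29 and, for CaCo-2, by 26 of 64 past the filter (40.6%), where the background was 56% and 40.8%. Their median log2 ratios were 1.14 in HT-29 and 0.79 in CaCo-2, those of all listed transcripts past the filter 1.14 and 0.82. With input above 0, 11 of 36 passed in HT-29, and for CaCo-2 8 of 46 (background 35.5% and 19.5%), and with 1 FPKM in both libraries 1 of 17 and 2 of 15 (background 25.2% and 13.1%). Listed in both lines were 29 genes, which comprised the casein kinases CSNK1D and CSNK1E; the phosphatase 2A subunits PPP2CA, PPP2R1A, PPP2R5C, PPP2R5D and PPP2R5E; the ubiquitin ligase genes CUL1, SKP1, FBXW11, RNF146 and SIAH1; AXIN2 and NLK; the membrane and secretion genes LGR4, RNF43, PTK7, RYK and WLS; and the nuclear genes TCF7, TLE4, AES, CTBP1, CTBP2, CHD8, CDC73, SMARCA4, MED12 and CTNNBL1.

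By the transcript with the highest RIP level, RNF43, a ubiquitin ligase that removes frizzled receptors, had log2 ratios of 0.95 in HT-29 and 1.49 in CaCo-2. LGR4, a receptor for R-spondins, had 11.4 FPKM in the RIP against 6.05 in HT-29, while a different transcript had 4.28 against 2.56 in CaCo-2. CHD8, a chromatin remodeller that binds beta-catenin, had 3.90 FPKM in the RIP against 1.12 in HT-29, in CaCo-2 6.01 against 3.38, and its HT-29 q was 0.0106 in the authors' deposited table. For the phosphatase subunit PPP2R5D the same nonsense-mediated-decay transcript was past 2-fold in both lines with input above 0, at 5.35 FPKM in the RIP against 0.810 in HT-29, and in CaCo-2 at 3.48 against 0.738. PPP2R1A, the phosphatase scaffold, had 23.9 FPKM in the RIP against 15.8 in HT-29. In CaCo-2 a different PPP2R1A transcript had 2.75 FPKM with input at 0. SKP1, which links BTRC to its ligase, had 2.67 FPKM with input at 0 in HT-29. Its CaCo-2 values, 2.40 against 0.961, are of a different transcript. FBXW11, the paralogue of BTRC, had 2.11 FPKM with input at 0 in HT-29. A different FBXW11 transcript had 2.56 against 0.698 in CaCo-2, with a q of 0.0281 in the authors' deposited table. TCF7 passed 2-fold in both lines, with log2 ratios that rest on an input of 0 in HT-29 and of 0.703 FPKM in CaCo-2.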

How the data were processed

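The 4 libraries were grouped by their titles into RIP and input of HT-29 and of CaCo-2. Per the submitters' processing notes, CASAVA 1.4, Bowtie2, TopHat2 2.0.8, Cufflinks and Cuffdiff were used with the hg19 build; strandedness and other versions were not given in the sources used here. The authors deposited 1 Cuffdiff table per line with FPKM values for RIP and input, a log2 fold change (called a score here, as an overflow value marks inputs of 0), and p-values and q-values. Where the input was above 0, the deposited fold equalled the ratio of the FPKM columns within 0.00248 log2 units.

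Starts were given 1 higher than in the files: of 77 snoRNA transcripts, 44 then had the RefSeq (GRCh38.p14) length and 4 without it. The 53 gene symbols all matched RefSeq symbols. Ratios, filters and counts are as stated above, computed with Python 3.11.15 and pandas 2.3.3. A check of the 2-fold count on simulated data used inputs far above 1 FPKM. It therefore did not test how the pseudocount acts at the low levels of these members. Alternatives changed the pseudocount, the filter, the treatment of isoforms and the source of the fold.

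The genes, lists and rules were chosen with earlier results of these data known. Every listed member was named; of the 80 further pathway genes, those listed in both lines were named, with values for the 8 highest by RIP level in the lower line. No promoter or transcript sequence was used.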

Additional observations from a re-analysis of the deposited data

How the results depend on the processing

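No paired analysis was possible because each group had 1 library. The counts past 2-fold were 11 in HT-29, 14 in CaCo-2 and 3 in both lines. A pseudocount of 0.1 FPKM gave 13 of 16 in HT-29, and for CaCo-2 24 of 34, with medians of 2.60 and 1.47, and moved all listed transcripts too (74.8% and 67.2% past 2-fold, medians 1.84 and 1.43). The authors' deposited table gave, by its fold, 13 of 16 for HT-29 and 25 of 34 for CaCo-2, with medians of 2.71 and 1.67. Of all listed transcripts past the filter, 77.1% and 71.3% were past 2-fold. Inputs of 0, which have an overflow value instead of a fold, were counted as past 2-fold and kept in these medians. Among members they were 4 in HT-29 and 8 in CaCo-2. A minimum of 1 FPKM in both libraries gave 3, 0 and 0 in both lines, with medians of 0.81 and 0.47. With 1 transcript per gene the counts were 7 of 10 and 5 of 16, with medians of 1.28 and 0.65, and over all genes 55.6% and 41.0% were past 2-fold. Summing isoforms gave 8 of 10 and 7 of 16, with medians of 1.29 and 0.95, and 62.8% and 50.2% over all genes. Both CaCo-2 counts are a lower share than that of all genes. Without a filter the CaCo-2 median was 0.83. Leaving out inputs of 0, added after seeing the data, gave 7, 6 and 0 in both lines, with medians of 1.10 and 0.63. Each of these settings changes which transcripts or what scale is counted. The CaCo-2 median was below that of the table with the main ratio, with 1 FPKM in both libraries, with inputs above 0, with 1 transcript per gene and with summed isoforms, and above it with the other 3. The HT-29 median was above it with the main ratio and in all 7 alternatives, of which dropping the filter left the HT-29 values unchanged. Single transcripts crossed 2-fold under a pseudocount of 0.1 for 2 of the 16 in HT-29, and for 10 of the 34 in CaCo-2. Levels near 1 FPKM and an unknown depth limit all these values.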
